A study of Mus musculus with 12 samples.

Results

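The Egr, Nr4a and Ier genes are immediate early genes, which cells transcribe within minutes of a growth factor, hormone or stress signal without needing new protein. The 10 genes described here were Egr1, Egr2, Egr3, Egr4, Nr4a1, Nr4a2, Nr4a3, Ier2, Ier3 and Ier5, taken by symbol from the 20718 genes of the table. They were selected on the levels measured in these same libraries, in which several of them had been seen to differ between the groups. Their levels and fold changes are therefore given as a description, with no p-value, and their counts are set beside the share of all genes that met the same criterion.

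Whole testis RNA of F0 mice (strain IRC mouse per the labels) was sequenced in 4 groups of 3 libraries. All mice had lentivirus placed into the testes at 4 weeks of age, were mated at 9 weeks for 4 days and were kept 4 more days before sampling. F0_3NC received a negative-control shRNA virus on the LV3 backbone, and F0_5251KD received a pool of shRNAs directed at the long non-coding lncRNA5251 on the same backbone. F0_5NC received the empty LV5 vector, and F0_5251OV received LV5 carrying lncRNA5251. Every group thus carried a virus, no uninjected testis was analysed here, and the labels do not say if each library is from its own mouse, so the spread between them may be technical. The virus reached an unmeasured share of testis cells, fewer cells of a type cannot be told apart from less RNA per cell, and the level of lncRNA5251 itself was not analysed here. The libraries held 15431383 to 16355720 estimated counts each. Levels are in CPM, the count scaled to the library's total, and RPKM, which also divides by transcript length, is used wherever genes are compared with each other.

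Egr1 to Egr4 are zinc-finger transcription factors that bind GC-rich sites and are restrained by the corepressors Nab1 and Nab2. Nr4a1 (Nur77), Nr4a2 (Nurr1) and Nr4a3 (Nor1) are nuclear receptors that act without a known hormone ligand, and in Leydig cells luteinizing hormone induces Nr4a1 through cyclic AMP. Ier2, Ier3 and Ier5 are small proteins outside these families, of which Ier3 is known for its part in survival signalling. Growth factor signals reach such genes mainly through the ERK kinases and serum response factor (SRF), which binds the CArG box, and cyclic AMP signals through CREB, which binds the cyclic AMP response element (CRE).

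The promoter windows of RefSeq (GRCm38.p6, from 250 bases before to 50 after a start given for the gene) were searched on both strands for these sites. They are the sequences through which the signals are known to act. Such a start need not be the end of the gene span printed below. The Nr4a1 window (101266596 to 101266895) and the Egr2 windows with sites lay inside those spans. A window was found for 7 of the 10 genes, and Egr1, Egr3 and Ier2 had no entry. Egr2 had 5 windows and the others 1 each, and a gene counted if any of its windows matched, so more sequence was searched for Egr2. A CArG box was present in 1 of the 7, Egr2, against 1.73% of the 16245 genes with a window and 1.47% of the 19985 windows. The CArG boxes of Egr2 lay in different windows. The CRE core TGACG was present in 5 of 7 (Egr2, Egr4, Nr4a1, Nr4a2 and Nr4a3), against 27.65% of genes, whereas the full CRE TGACGTCA, which begins with this core, was found in 0 of 7 and in 2.71% of genes. The CArG boxes of Egr2 are shown on the gene's own strand, with the site in capitals. The CRE core nearest such a start is shown likewise for each of the 5 genes. CGTCA is the core read on the other strand, and the stretch shown for the CRE core of Egr2 overlaps its upper CArG box.
Egr2 CArG box (chr10:67537787-67537816, + strand): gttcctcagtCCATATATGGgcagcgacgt
Egr2 CArG box (chr10:67537484-67537513, + strand): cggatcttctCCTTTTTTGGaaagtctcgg
Egr2 CRE core (chr10:67537802-67537831, + strand): tatgggcagcgaCGTCAcgggtattgaaga
Egr4 CRE core (chr6:85513681-85513710, - strand): tttggtcatttaCGTCAcggcgccagggcc
Nr4a1 CRE core (chr15:101266794-101266823, + strand): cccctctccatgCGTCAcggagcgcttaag
Nr4a2 CRE core (chr2:57124097-57124126, - strand): tgacggggccgcTGACGcgcttggccgcgg
Nr4a3 CRE core (chr4:48045146-48045175, + strand): ctgtggcataaaTGACGtgccgagagagcg

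The Egr recognition sequence GCGNGGGCG was present in the windows of Nr4a1 and Nr4a2, 2 of 7, against 9.17% of genes. The NBRE AAAGGTCA, which Nr4a receptors bind as monomers, was found in 0 of 7 and in 1.46% of genes. A TATAAA was present in Nr4a2 only, 1 of 7, against 12.99% of genes. The 2 Egr sites are shown in the same way.
Nr4a1 Egr site (chr15:101266776-101266805, + strand): gcgtcagtggCGCCCCCGCccctctccatg
Nr4a2 Egr site (chr2:57124058-57124087, - strand): cgcggggtgcGCGCGGGCGgcgacaatgaa

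In GENCODE, with 1 transcript a gene, the 10 genes spanned a median of 4741 bases with 2 exons, against 17629 bases and 7 exons over 19321 genes. The Nr4a genes, with 8 exons each, were the exception in exon number, and Nr4a1 and Nr4a3 spanned 20527 and 37334 bases. The pentamer ATTTA, the core of the AU-rich elements that Zfp36 and related proteins bind in short-lived messages, occurred in the 3′ UTR of 8 of the 10 genes and of 65.9% of all genes. Ier3 held 5 in 613 bases, or 8.16 per kilobase, the 98.0 percentile of all genes, and Nr4a1 held 3 in 543 bases, or 5.52 per kilobase, the 94.4 percentile. Egr4 and Ier2 held none. The other genes with a pentamer lay between the 43.8 percentile (Ier5) and the 74.9 percentile (Egr3). The median density was 1.95 per kilobase in the 10 genes and 1.23 in all genes. A longer AU-rich element, a nonamer, was found in 0 of the 10 genes and in 7.6% of all genes. For Ier3 and Nr4a1 the stretch of the 3′ UTR with 2 pentamers is given, with the pentamers in capitals.
Ier3 3′ UTR, bases 166 to 195: ctccgtgtctaattaatATTTAtgtATTTA
Nr4a1 3′ UTR, bases 449 to 478: gATTTAtatttgtgtattttcctggATTTA

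The data showed 5 kinds of pattern over the 4 groups. Egr1, Egr2, Nr4a2 and Ier2 were lowest with the LV5 viruses, higher in F0_3NC and highest in F0_5251KD. Nr4a3 and Ier3 were higher in the LV3 than in the LV5 groups and overlapped between knockdown and its control. Nr4a1 was higher in F0_5251KD than in the other 3 groups, Egr4 was lower in F0_5251OV and F0_3NC than in F0_5NC, and Egr3 and Ier5 were nearly level. Between the highest and the lowest group mean in CPM the ratio was 30.88 for Egr1 and 25.51 for Egr2. It was 5.38 to 6.2 for Nr4a2, Nr4a3, Ier2 and Ier3, 1.80 for Egr4, 1.61 for Nr4a1, 1.23 for Egr3 and 1.06 for Ier5.

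**Figure D1:**
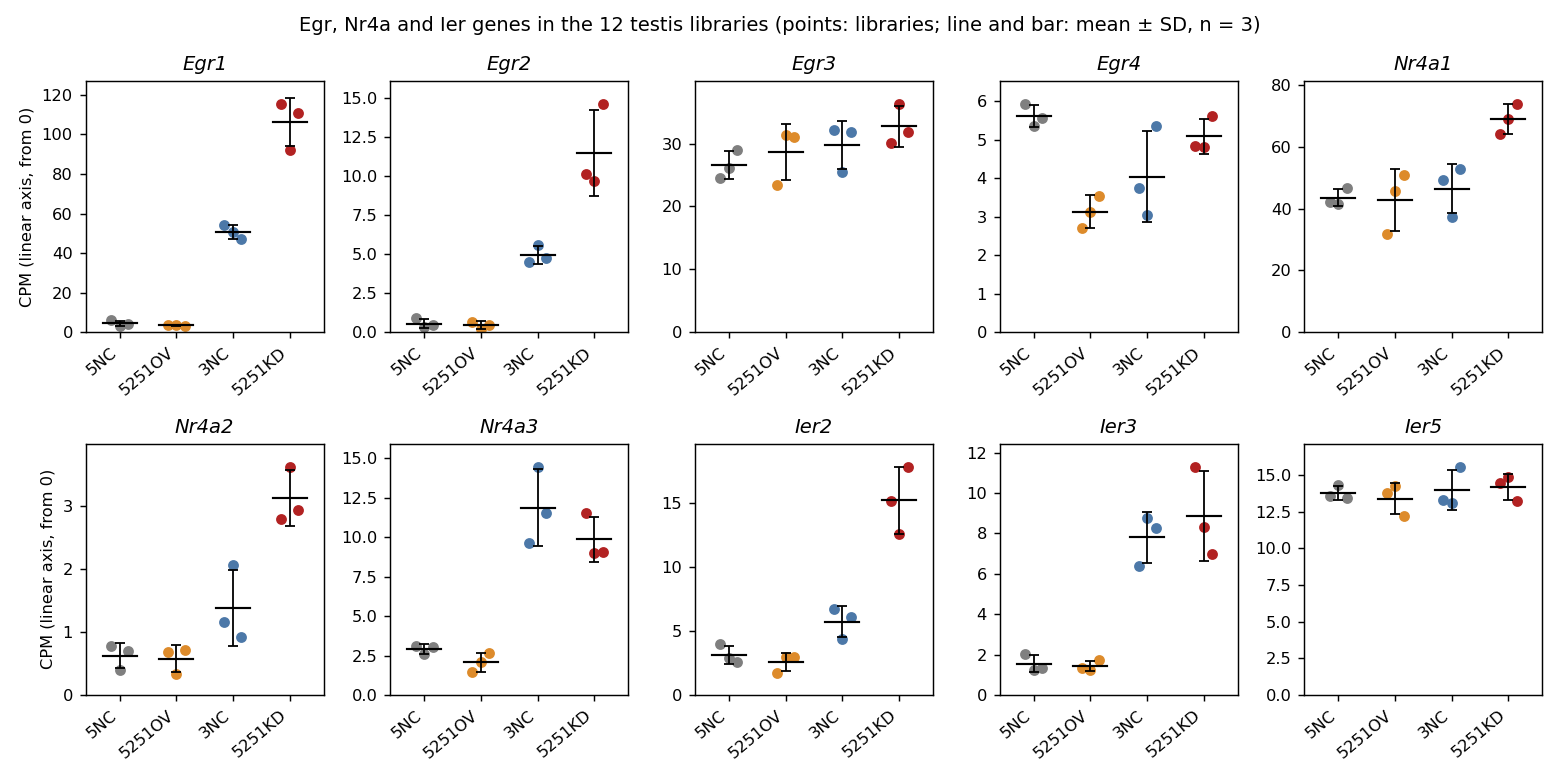
Level of each of the 10 genes in CPM (linear axes from 0, one scale per gene) in the 3 libraries of F0_5NC, F0_5251OV, F0_3NC and F0_5251KD. Points are libraries, and the line and bar are the mean and SD. Egr1 went from a mean of 3.44 CPM in F0_5251OV to 106.24 CPM in F0_5251KD, while Ier5 stayed between 12.21 and 15.59 CPM in all 12 libraries.

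Egr1 (gene ID 13653) lies on chromosome 18, bases 34861207 to 34864956 of GRCm38.p6. It is the best studied factor of its family and is also the pituitary factor needed for luteinizing hormone production. In F0_5NC its 3 libraries read 5.99, 3.30 and 4.09 CPM, and in F0_5251OV 3.64, 3.52 and 3.17 CPM. In F0_3NC they read 54.25, 50.66 and 47.10 CPM, and in F0_5251KD 115.46, 92.26 and 111.00 CPM. Each LV3 library thus lay above each LV5 library, and each knockdown library above each library of its control. The LV5 groups overlapped. On the log2 scale of the edgeR fit F0_5251KD exceeded F0_3NC by 1.07 (SE 0.137), and F0_3NC exceeded F0_5NC by 3.49 (SE 0.166), while F0_5251OV lay 0.38 (SE 0.198) under F0_5NC.

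Egr2 (Krox20, chromosome 10, 67534469 to 67542188), required for myelination and hindbrain patterning, followed the same steps at a much lower level. It read 0.90, 0.33 and 0.45 CPM in F0_5NC and 0.69, 0.20 and 0.45 CPM in F0_5251OV, which rests on 2.57 to 15.35 estimated counts a library. It read 4.51, 5.59 and 4.76 CPM in F0_3NC and 10.17, 9.66 and 14.63 CPM in F0_5251KD, again with no overlap between these groups. The log2 difference was 1.21 (SE 0.257) for knockdown, 3.11 (SE 0.344) between the controls and −0.33 (SE 0.472) for overexpression. Its counts were not whole in 9 libraries, so some of its reads were split between features, and it overlaps the gene Gm32255, whose reads cannot be told apart from it without strand information.

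Egr3 (chromosome 14, 70077317 to 70082613), known from muscle spindle development and lymphocytes, hardly varied. Its libraries read 24.57 to 28.91 CPM in F0_5NC, 23.44 to 31.39 CPM in F0_5251OV, 25.42 to 32.09 CPM in F0_3NC and 30.06 to 36.31 CPM in F0_5251KD. Neighbouring groups overlapped throughout, and the 3 log2 differences lay between 0.11 and 0.17.

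Egr4 (chromosome 6, 85511121 to 85513589), the family member whose loss is known to impair spermatogenesis in male mice, had its own order. It read 5.93, 5.35 and 5.56 CPM in F0_5NC against 2.70, 3.13 and 3.55 CPM in F0_5251OV, and these groups did not overlap. It read 3.74, 3.04 and 5.35 CPM in F0_3NC and 4.83, 4.80 and 5.62 CPM in F0_5251KD, which overlapped. The edgeR fit gave a log2 difference of −0.84 (SE 0.202) for overexpression, 0.33 (SE 0.199) for knockdown and −0.48 (SE 0.198) for F0_3NC against F0_5NC. In the last comparison the groups only touched, since the highest F0_3NC library and the lowest F0_5NC library both read 5.35 CPM after rounding.

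The make-up of the Egr family therefore differed between the LV3 and the LV5 groups. By RPKM, Egr3 made up 61.0% ± 4.9 (SD, n = 3) of the family in F0_5NC and 72.6% ± 2.8 in F0_5251OV. Egr1 made up 59.7% ± 3.7 in F0_3NC and 70.2% ± 3.3 in F0_5251KD, against 13.1% ± 3.7 in F0_5NC. Egr4 went from 24.7% ± 1.0 in F0_5NC to 5.0% ± 0.4 in F0_5251KD, with a mean of 5.62 and 5.08 CPM in these groups.

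**Figure D2:**
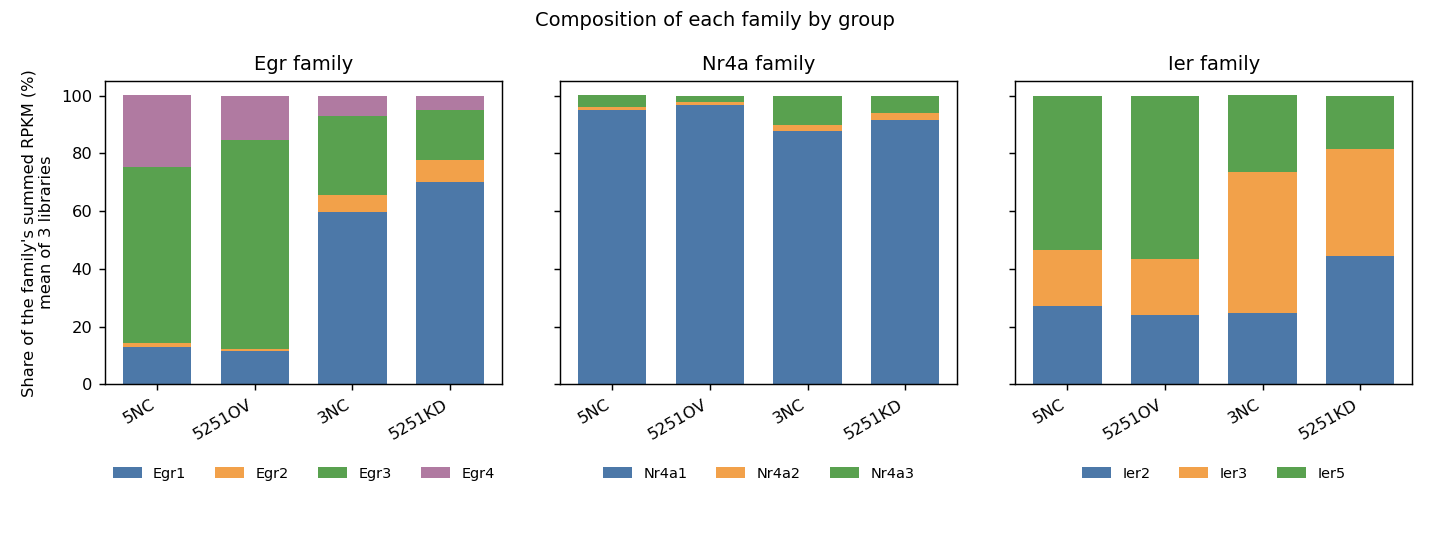
Share of each family's summed RPKM taken by each gene, in percent, as the mean of the 3 libraries of a group (bars from 0). Egr3 is the largest part of the Egr bars of both LV5 groups and Egr1 of both LV3 groups, while Nr4a1 takes between 87.9% and 96.8% of the Nr4a bars in every group.

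Nr4a1 (chromosome 15, 101253902 to 101274795) had the highest mean RPKM of the 10 genes, 21.38 over the 12 libraries. It read 42.19, 41.56 and 46.63 CPM in F0_5NC and 31.72, 45.81 and 50.86 CPM in F0_5251OV. It read 49.23, 37.46 and 52.72 CPM in F0_3NC and 64.18, 69.11 and 73.90 CPM in F0_5251KD. The knockdown libraries lay above the other 9, and those 9 overlapped. Knockdown libraries exceeded F0_3NC by 0.57 on the log2 scale (SE 0.156), with −0.02 (SE 0.157) for overexpression and 0.10 (SE 0.157) between the controls.

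Nr4a2 (chromosome 2, 57106830 to 57124003), needed for midbrain dopamine neurons, was the lowest of the 10 by RPKM, with a mean of 0.40. It read 0.78, 0.40 and 0.70 CPM in F0_5NC and 0.69, 0.33 and 0.71 CPM in F0_5251OV. It read 1.16, 2.07 and 0.92 CPM in F0_3NC and 2.80, 3.63 and 2.94 CPM in F0_5251KD, a step without overlap each time. These values rest on 5 to 56 estimated counts a library, and the gene overlaps LOC105244150. The log2 difference was 1.16 (SE 0.326) for knockdown, 1.13 (SE 0.384) between the controls and −0.13 (SE 0.431) for overexpression.

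Nr4a3 (chromosome 4, 48045078 to 48086447) was higher in the LV3 than in the LV5 groups and overlapped within each backbone. It read 3.12, 2.58 and 3.07 CPM in F0_5NC and 1.44, 2.09 and 2.65 CPM in F0_5251OV. It read 9.60, 14.47 and 11.56 CPM in F0_3NC and 11.50, 9.01 and 9.07 CPM in F0_5251KD, so the LV3 groups overlapped and lay wholly above the LV5 groups. The log2 difference was 2.02 (SE 0.211) between the controls, −0.27 (SE 0.191) for knockdown and −0.51 (SE 0.24) for overexpression. Nr4a1 and Nr4a3 were not alike over the groups. Their windows both hold CRE cores, as do those of 27.65% of genes, and a link between site and level was not tested.

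Ier2 (chromosome 8, 84661331 to 84662852), a gene of 1 exon, had the largest knockdown difference of the 10. It read 3.96, 2.91 and 2.62 CPM in F0_5NC and 1.75, 2.94 and 2.97 CPM in F0_5251OV. It read 6.70, 4.38 and 6.14 CPM in F0_3NC and 15.19, 12.64 and 17.88 CPM in F0_5251KD. F0_3NC lay above F0_5NC and F0_5251KD above F0_3NC, both without overlap. Its log2 difference came to 1.41 (SE 0.217) for knockdown, 0.85 (SE 0.237) between the controls and −0.31 (SE 0.255) for overexpression.

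Ier3 (chromosome 17, 35821713 to 35822911), the gene with the densest ATTTA, shared the pattern of Nr4a3. It read 2.04, 1.26 and 1.34 CPM in F0_5NC, 1.32, 1.24 and 1.74 CPM in F0_5251OV, 6.38, 8.76 and 8.26 CPM in F0_3NC and 11.31, 8.30 and 6.96 CPM in F0_5251KD. The LV3 libraries lay above the LV5 libraries, with overlap within each backbone. On the log2 scale it differed by 2.32 (SE 0.247) between the controls, 0.18 (SE 0.212) for knockdown and −0.11 (SE 0.285) for overexpression. Ier5 (chromosome 1, 155096367 to 155099636), a partner of phosphatase PP2A, read 12.21 to 15.59 CPM over all 12 libraries, with log2 differences of −0.04 to 0.02.

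The first comparison of the design asks what the knockdown of lncRNA5251 changed relative to the control virus of the same backbone. Of the 10 genes, 9 were higher in F0_5251KD, and the median log2 difference was 0.45 against −0.004 over the 16296 genes tested. By edgeR's quasi-likelihood test with Benjamini-Hochberg adjustment over all genes, 1 of the 10, Egr1, was called higher at an adjusted p under 0.05, beside 0.0245% of all genes, and none was called lower. In 5 of the 10 (Egr1, Egr2, Nr4a1, Nr4a2 and Ier2) the knockdown libraries lay wholly above the control, beside 5.52% of all genes, and the same 5 had an unadjusted p under 0.05, beside 2.34%. On the lower side there were 0 of the 10 by either criterion, beside 6.28% and 2.4% of all genes. These libraries served to choose the genes, so nothing is read from these counts. The call of Egr1 was lost when F0_3NC replicate 1 or 3, F0_5251KD replicate 1 or 3, or F0_5251OV replicate 2 was left out, with a log2 difference of 1.0 to 1.12 in those fits. It was also lost by limma on log2(RPKM + 1) and log2(RPKM + 0.1), while DESeq2 called 3 of the 10, Egr1, Egr2 and Ier2.

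The second comparison asks the same of overexpression against the empty vector. Here 9 of the 10 were lower in F0_5251OV, with a median of −0.22 against −0.002 over all genes. The test called 0 of the 10, beside 0% of all genes in either direction. At an unadjusted p under 0.05 there was 1 lower gene, Egr4, beside 4.8% of all genes, and 0 higher, beside 3.97%. DESeq2 and limma also called 0 of the 10. Egr4 was the only one of the 10 whose groups did not overlap, beside 6.57% of genes lower in this way, and 0 were higher in this way, beside 7.33%. The 95% interval of the log2 difference ran from −0.81 to 0.04 for Egr1, from −1.35 to 0.68 for Egr2 and from −1.02 to 0.01 for Nr4a3. With 3 libraries a group, lower levels of these genes could not be told from no difference.

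The knockdown effect minus the overexpression effect, taken with their signs, was above 0 in all 10 genes, with a median of 0.89 on the log2 scale against 0.003 over all genes. The interaction test of edgeR called 0 of the 10 and 0% of all genes, while DESeq2 called 2, Egr1 and Ier2. By edgeR 6 of the 10 (Egr1, Egr2, Egr4, Nr4a1, Nr4a2 and Ier2) had a higher value at an unadjusted p under 0.05, beside 5.23% of all genes, and 0 had a lower one, beside 6.08%. The difference between the effects was 1.72 (SE 0.335) for Ier2, 1.45 (SE 0.24) for Egr1 and 1.18 (SE 0.284) for Egr4. No gene of the 10 had non-overlapping groups in opposite directions in the 2 experiments. Among the further genes and markers listed below, Fos, Junb, Plk3, Des and Plin1 had them, higher for knockdown and lower for overexpression. The share of all genes with such groups is not given here, so nothing is read from this. Each effect is taken against the control of its own backbone, and a response that depends on the backbone cannot be told apart from one to the direction of the lncRNA5251 change.

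The third comparison is of the 2 control viruses, neither of which carries lncRNA5251 or shRNA against it. For the 10 genes it gave the largest median difference and the most calls. Single genes differed from this, since Ier2, Nr4a1 and Nr4a2 had a larger difference for knockdown, and Egr4 and Ier5 for overexpression. Of the 10 genes 9 were higher in F0_3NC, with a median log2 difference of 0.99 against 0 over all genes, and Egr1, Egr2, Nr4a3 and Ier3 were called higher, 4 of 10 beside 0.276% of all genes. None was called lower, beside 0.0552%. The groups did not overlap in 6 of the 10 on the higher side, beside 9.59% of all genes, and in Egr4 on the lower side, beside 7.41%. The same genes had an unadjusted p under 0.05, 6 higher and 1 lower, beside 6.41% and 5.47%. The 4 calls held in each of the 12 fits that left out 1 library and in 8 other settings, except that Nr4a3 was not called by limma on log2(RPKM + 0.1), with a log2 difference of 1.43. These libraries also served to choose the genes, so nothing is read from these counts, their order among the comparisons or how often the calls held. F0_3NC and F0_5NC each enter 2 of these comparisons, so their values are not independent of each other. Vector, injection series and any other difference between the LV3 and LV5 mice cannot be told apart.

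**Figure D3:**
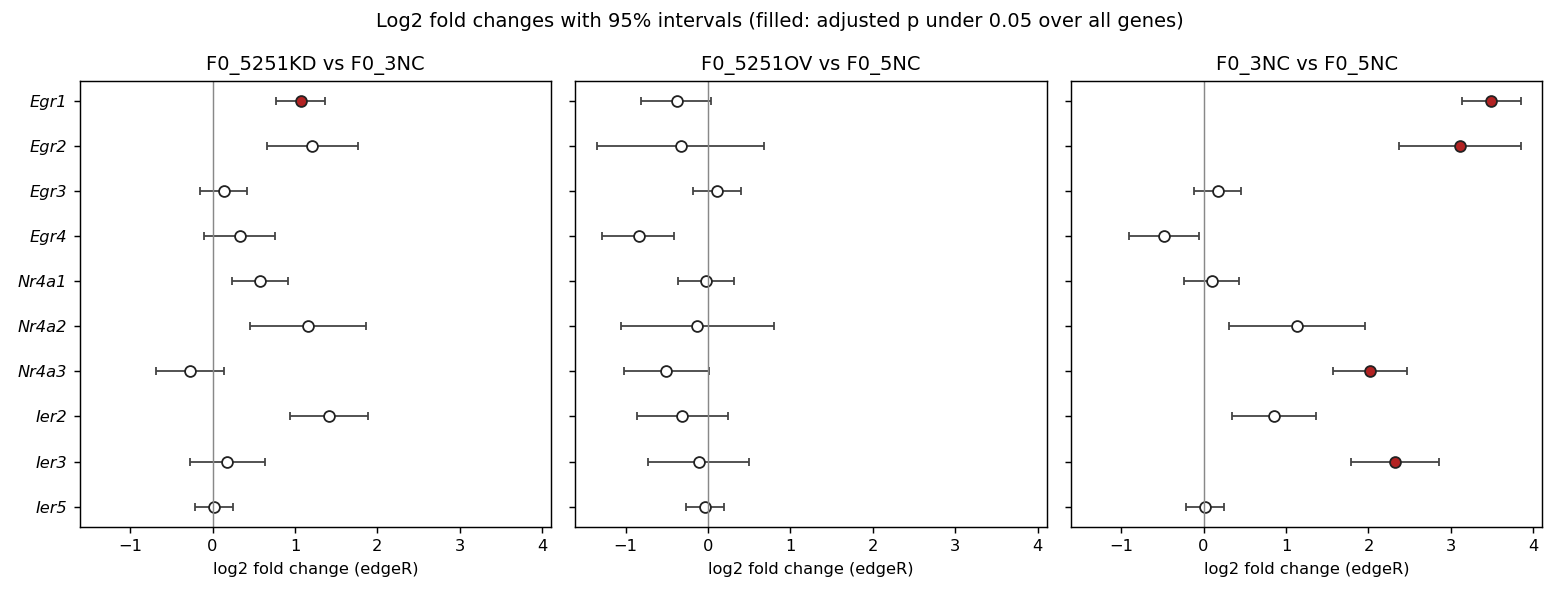
Log2 fold changes of the 10 genes from the edgeR fit (points) with 95% intervals (bars) for knockdown, overexpression and the 2 control viruses. Filled points have an adjusted p under 0.05 over all genes: Egr1 at 1.07 on the left, none in the middle, and Egr1, Egr2, Nr4a3 and Ier3 at 2.02 to 3.49 on the right.

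The other genes of the pathway were read from lists of upstream regulators, partners, described targets and further immediate early genes. Of 21 upstream genes, which hold Srf, its cofactors, the CREB family and the ERK kinases, 0 were called in each of the 3 comparisons by edgeR or by DESeq2, and at an unadjusted p under 0.05 there were 0 for knockdown, 2 for overexpression and 3 between the controls. Their log2 differences lay between −0.20 and 0.24 for knockdown, where Elk1, an SRF partner activated by ERK, had 0.24 (SE 0.207). Between the controls the farthest was Elk4, a relative of Elk1, at 0.51 (SE 0.22), and for overexpression Elk3, another, at −0.57 (SE 0.207). Phosphorylation, through which these regulators act, is not seen in RNA.

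Of the 9 partners and relatives, 0 were called in each comparison by edgeR or by DESeq2, with 0, 2 and 2 at an unadjusted p under 0.05 for knockdown, overexpression and the controls. Nab2, the corepressor that Egr factors themselves are known to induce, was at 22.12 ± 1.90 CPM in F0_5NC, 24.02 ± 2.89 in F0_3NC and 26.45 ± 2.95 in F0_5251KD (SD, n = 3), with a log2 difference of 0.14 (SE 0.128) for knockdown and 0.12 (SE 0.129) between the controls. Nr5a1 (SF-1), the steroidogenic factor that shares target sites with Nr4a1, had the largest difference of this list for knockdown, 0.38 (SE 0.196, adjusted p = 0.8969 by edgeR), and −0.54 (SE 0.195) between the controls. For overexpression the farthest was the corepressor Nab1, at −0.56 (SE 0.223).

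Of 14 described Egr targets 13 were tested. For knockdown and for overexpression 0 were called by edgeR or by DESeq2, with 1 and 1 at an unadjusted p under 0.05. For overexpression the largest difference was −1.09 (SE 0.252, adjusted p = 0.4039 by edgeR) in Ptges, a prostaglandin E synthase. For F0_3NC against F0_5NC, 3 rose and none fell by edgeR's adjusted p, and the list's median was 0.47. Thrombospondin 1 (Thbs1) rose from 3.23 ± 0.33 to 6.43 ± 0.85 CPM (log2 0.99, SE 0.172, adjusted p = 0.0238 by edgeR), and tissue factor (F3) from 3.28 ± 0.77 to 8.21 ± 1.72 CPM (log2 1.32, SE 0.247, adjusted p = 0.04331 by edgeR). These calls were lost without single libraries. Thbs1 lost its call without F0_3NC replicate 1 or 2 or any 1 of the F0_5NC libraries (0.90 to 1.08), and F3 without the same libraries or F0_5251KD replicate 1 or 3 (1.15 to 1.47). Both are themselves known as early response genes, and what moved them was not tested.

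Of the Nr4a targets in steroid-producing cells 5 of 6 were tested and 0 were called in each comparison by edgeR or by DESeq2. There were 1 at an unadjusted p under 0.05 for overexpression, 1 between the controls and 0 for knockdown, where Nr4a1 was higher. Star, the carrier of cholesterol into mitochondria, was at 188.86 ± 16.41 CPM in F0_5NC and 299.99 ± 79.64 CPM in F0_3NC (log2 0.67, SE 0.204, adjusted p = 0.2809 by edgeR). Its difference for knockdown was −0.14 (SE 0.203). Insl3, the Leydig cell hormone, had the largest difference for knockdown, 0.36 (SE 0.259), and for overexpression, −0.56 (SE 0.26).

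The further immediate early genes, 38 in all, include AP-1 subunits and feedback inhibitors of the same signals. For knockdown 3 were called, all higher. They were Btg2, an antiproliferative factor (log2 1.37, adjusted p = 0.008558 by edgeR), Zfp36, the ATTTA-binding protein (0.91, adjusted p = 0.02231), and Fos, a subunit of AP-1 (1.58, adjusted p = 0.03282). Without F0_3NC replicate 1 or 3 or F0_5251KD replicate 3 none of the 3 was called. Fos and Zfp36 were also lost without F0_5251KD replicate 1 or F0_5251OV replicate 2, and Fos without F0_5251KD replicate 2. Over these fits the log2 differences were 1.21 to 1.39 for Btg2, 0.82 to 0.92 for Zfp36 and 1.42 to 1.72 for Fos. Of 8 other settings Btg2 was called in 7, Fos in 5 and Zfp36 in 3. The settings without a call of Fos or Zfp36 include the fit of only the compared groups and limma on log2(RPKM + 0.1), and for Zfp36 also limma on log2(RPKM + 1) and the pooled-count test. DESeq2 called 7 of the 38. For overexpression 0 of 38 were called by edgeR or by DESeq2, with 0 higher and 3 lower at an unadjusted p under 0.05, and the largest difference was −1.06 (SE 0.365) in Fos. Between the controls 11 were called, all higher in F0_3NC, and those with the smallest p were Btg2 (log2 2.38), Myc (3.38), Zfp36 (1.47) and Trib1 (1.68). Myc, the growth regulator, had a knockdown difference of −0.92 (SE 0.222, adjusted p = 0.6659 by edgeR). These lists were drawn up when such results were known, and their counts are a description of the pathway.

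**Figure D4:**
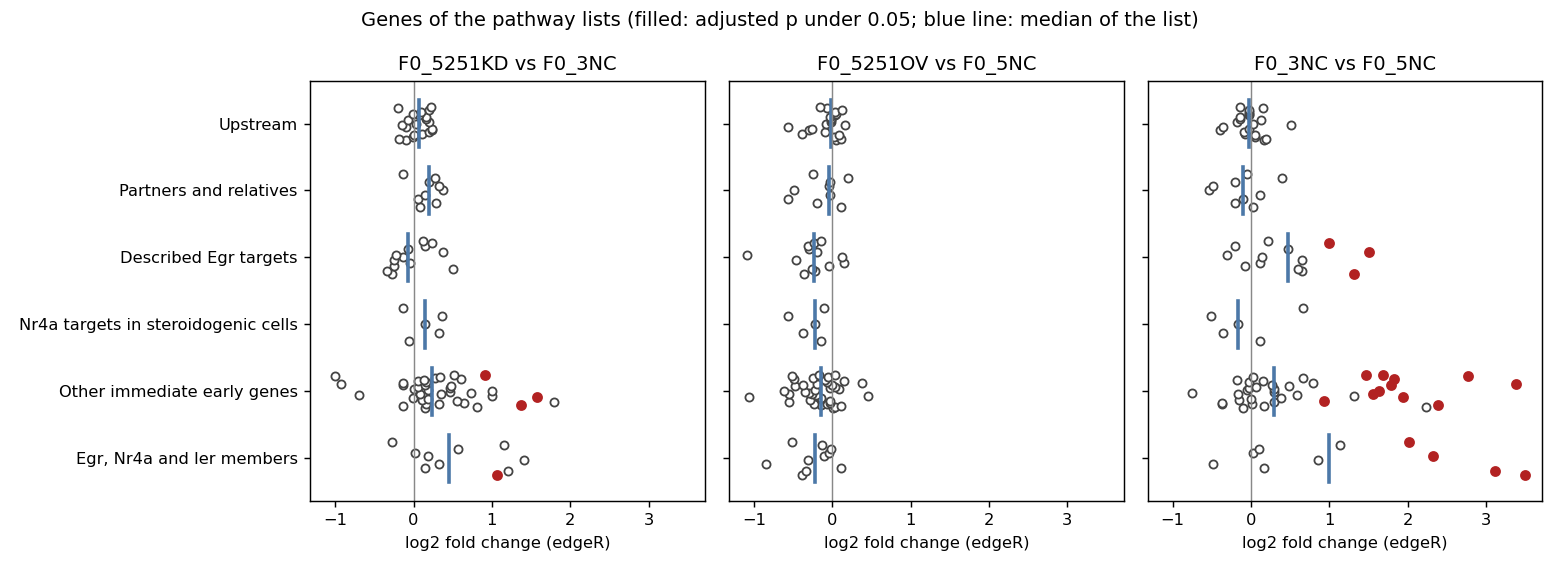
Log2 fold change (edgeR) of each tested gene in the 5 pathway lists and of the 10 Egr, Nr4a and Ier genes, for the 3 comparisons. Points are genes, filled where the adjusted p is under 0.05, and the blue line is the list's median. Upstream genes sit within 0.57 of 0 in all panels, while 11 further immediate early genes and 3 described Egr targets are filled in the right panel.

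The genes whose pattern over the 12 libraries was most like that of the leading member of each family were found among 15157 non-members by the mean absolute difference of centred log2 CPM. Nearest to Egr1 were Btg2 (0.54), Fos (0.61) and Myc (0.86), against a median of 2.10 over all candidates. Btg2 was at 4.44 ± 0.83, 4.03 ± 0.90, 23.19 ± 1.02 and 59.96 ± 10.89 CPM in F0_5NC, F0_5251OV, F0_3NC and F0_5251KD. Nearest to Ier3 were Plk3 (0.30), Fosl2 (0.31) and Maff (0.31), against a median of 1.19, which were all called between the controls and not for knockdown. Nearest to Nr4a1 were Kcng2 (0.11), Sertad1 (0.13) and Erf (0.15), against a median of 0.30. The 9 nearest genes of the 3 leading members were all different. The values were not scaled, so genes were also matched by the size of their differences. Between the highest and lowest group mean the ratio was 30.88 for Egr1, 6.2 for Ier3 and 1.61 for Nr4a1, so nothing is read from this. Myc, near Egr1, was lower for knockdown (log2 −0.92), where Egr1 was higher (1.07).

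The testis label matched its markers, with all 5 germ cell markers present at a summed 3504.9 to 4393.9 CPM in the 12 libraries. Summed markers of other cell types did not overlap in several of the comparisons. For knockdown, the summed level of the 5 endothelial markers was 23.3 to 25.6 CPM in F0_5251KD and 19.8 to 20.2 CPM in F0_3NC, with 5 of 5 higher, 0 called by edgeR or by DESeq2 and 1 at an unadjusted p under 0.05. The 5 red cell markers summed to 68.9 to 106.7 against 53.9 to 62.5 CPM. Of the 4 tested, 3 were higher and 0 were called by edgeR or by DESeq2. Only Hba-a1 (log2 0.74, SE 0.254) had an unadjusted p under 0.05 by edgeR, and its groups overlapped. Hbb-bs, Hbb-bt and Alas2 differed by 0.14, −0.01 and 0.10. For overexpression, the 5 peritubular and smooth muscle markers were at 61.7 to 73.2 CPM in F0_5251OV and 83.6 to 100.3 CPM in F0_5NC, with 5 of 5 lower. By edgeR 0 of these 5 were called and 4 had an unadjusted p under 0.05, and DESeq2 called 1, Myh11. In the same comparison 5 of 5 Sertoli (median log2 −0.38, 3 at an unadjusted p under 0.05), 5 of 5 Leydig, 5 of 5 endothelial and 5 of 6 macrophage markers were lower and 5 of 5 germ cell markers higher, with 0 called by edgeR or by DESeq2, beside the 9 of 10 Egr, Nr4a and Ier genes that were lower. Between the controls, the 5 endothelial markers were at 19.8 to 20.2 CPM in F0_3NC and 20.9 to 26.7 CPM in F0_5NC. All 5 were lower, 1 at an unadjusted p under 0.05 by edgeR. Of the Sertoli markers 5 of 5 were lower, 3 at an unadjusted p under 0.05, and 4 of 5 germ cell markers were higher. Of these 0 were called by edgeR or by DESeq2, beside the 9 of 10 Egr, Nr4a and Ier genes that were higher. In the same comparison 4 epididymis markers were at 4.9 to 10.1 CPM in F0_3NC and 15.6 to 110.6 CPM in F0_5NC. Of the 3 that were tested, all were lower and 0 were called by edgeR, with 2 at an unadjusted p under 0.05 (Adam7, log2 −7.27, and Crisp1, −4.70), and DESeq2 called 1, Adam7. Plin1, an adipocyte gene, was lower in F0_3NC (log2 −1.46, adjusted p = 0.02189 by edgeR). Plin1 lost its call without F0_3NC replicate 2 or 3 or F0_5NC replicate 1 or 3 (−1.45 to −1.32). Macrophage markers overlapped, at 69.8 to 93.0 CPM in F0_3NC, 74.3 to 102.1 CPM in F0_5NC and 74.4 to 90.4 CPM in F0_5251KD, and T cell markers stayed between 5.3 and 9.4 CPM in all groups. The part of these cell types in the levels of the Egr, Nr4a and Ier genes was not tested.

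Within groups the 10 genes did not single out 1 library everywhere. In F0_5NC, replicate 1 was the highest library in 7 of the 10 genes (Egr1, Egr2, Egr4, Nr4a2, Nr4a3, Ier2 and Ier3). In F0_5251OV, replicate 3 was the highest in 6. In F0_3NC and F0_5251KD each library was the highest in 3 or 4 genes.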

How the data were processed

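Whole testis RNA of 4 groups of 3 libraries was analysed. The reads were aligned by the authors to reference genes with SOAPaligner 2.20 (submitters' processing notes, build mm10), and no strand-marking step is named. The authors deposited 1 table with an estimated count and an RPKM value per gene and library. RPKM is the name in the study's methods for the column divided by length and total. Fractions remained in 12.0% of the counts (beyond 1e-06 of a whole number), as happens when reads are shared among genes, and counts were rounded. Left out were 14 columns of the authors' means and 18 per-sample columns that could be tied to none of the 12 libraries.

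CPM were computed with TMM scaling (factors 0.97 to 1.078). Tests were edgeR 4.0.16 (R 4.3.3) quasi-likelihood tests, two-sided, in 1 fit of 12 libraries with filterByExpr, which kept 16296 genes including all 10 described. P-values were adjusted by Benjamini-Hochberg with a threshold of 0.05. The fits were checked on simulated counts. The 95% intervals use the moderated degrees of freedom and cover the spread between libraries. Totals of 15431383 to 16355720 gave nearly equal depth.

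The genes and lists were chosen with earlier results of these data known. All 10 genes are described; of each list the genes called are named, at most the 4 with the smallest p, and otherwise the gene with the largest difference. Some genes that this rule names are not reported here. Nab2, and Myc for knockdown, were chosen after their values were seen. Nearest genes were taken among non-members with a mean of at least 1 CPM, with a prior count of 2, for the member of highest mean RPKM in each family. Coordinates are from RefSeq (GRCm38.p6, the same build as mm10) and transcripts from GENCODE. Alternatives were DESeq2 1.42.0, other filters, the replicate number as a block, only the compared groups, limma 3.58.1 on log2(RPKM + 1) and log2(RPKM + 0.1), a pooled-count test and leaving out each library.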

Additional observations from a re-analysis of the deposited data

How the results depend on the processing

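Over the alternatives no value that had been called changed its direction. For knockdown the number of the 10 genes called, 1 by edgeR, was 3 by DESeq2, 2 with no filter, 0 by limma with either pseudocount and 4 by the pooled-count test, in which replicates are summed. Leaving out 1 library gave 0 to 2, with 0 without F0_3NC replicate 1 or 3, F0_5251KD replicate 1 or 3 or F0_5251OV replicate 2, and 2 without F0_5NC replicate 1 or F0_5251OV replicate 1. The median knockdown difference of the 10 genes was 0.36 to 0.63 in these fits. The listed genes called for knockdown, 3 by edgeR, were 7 by DESeq2, 0 by limma on log2(RPKM + 0.1), 8 by the pooled-count test and 0 to 4 with 1 library left out. For overexpression 0 listed genes became 1 by DESeq2 and 5 by the pooled-count test, and the median of the 10 genes ranged from −0.37 to −0.05 with 1 library left out. Between the controls 4 of the 10 were called in every fit that left out 1 library, listed genes called ranged from 11 to 19 around 15, and the median of 0.99 was 0.41 by limma on log2(RPKM + 1) and 0.74 with a pseudocount of 0.1, which shrinks differences of low genes. Nr4a3 lost its call by limma with 0.1 (log2 1.43). Its F0_5NC libraries read 3.12, 2.58 and 3.07 CPM but 1.11, 0.46 and 0.82 RPKM. The length that its RPKM divides by thus differed between libraries, and the pseudocount is not the only difference between these fits. For the difference between the effects, 0 of the 10 became 2 by DESeq2 (Egr1 and Ier2), 0 listed genes became 6 by DESeq2 and 1 by limma on log2(RPKM + 1), and the median of 0.89 became 0.56 by the latter. The other causes were not tested. For libraries with the same number the correlation of their deviations was −0.17 to 0.07, which cannot show if the samples were paired by design. With the replicate block 1 listed gene was called for knockdown and no call among the 10 genes changed. Depth limits Egr2 and Nr4a2 in the LV5 groups, which rest on few counts.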
